A study of Homo sapiens with 8 samples.

Results

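The genes described here encode integrins, laminins and collagens, and they were followed in Caco-2 cells. This line was derived from a human colorectal tumour, and at confluence it forms a polarised monolayer with features of small intestinal enterocytes. Rows of the deposited expression table that carry 1 gene symbol were taken when that symbol began with ITGA or ITGB, had the form of a laminin chain (LAMA, LAMB or LAMC with a number) or had the form of a collagen chain (COL, number, A, number). Where a gene had several rows, the row with the highest mean over the 8 arrays was kept. This gave 83 genes of 22392 genes in all, with 30 in the integrin class, 11 in the laminin class and 42 in the collagen class. The integrin class holds 25 receptor subunits and 5 genes that the symbol pattern also takes, namely ITGB1BP1, ITGB1BP2, ITGB3BP, ITGBL1 and the antisense gene ITGB2-AS1. The laminin class holds the pseudogene LAMB2P1, a near copy of LAMB2, whose probes may share signal with it.

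Integrins are receptors made of an alpha and a beta subunit that tie the cytoskeleton to the matrix outside the cell. Laminins are trimers of an alpha, a beta and a gamma chain and form, with type IV collagen, the basement membrane on which gut epithelium rests. Collagens are trimers too, and they include the fibre-forming chains of connective tissue, the beaded filaments of type VI and chains that decorate fibres or anchor basement membranes. In the intestine, much of the fibrillar matrix is made by fibroblasts, whereas epithelial cells make part of their own basement membrane.

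All samples came from the same cell line at passages 29 to 45, were seeded at 75000 cells per cm2 and were harvested after 21 days. Transwell samples (n = 4) had grown without flow on PET inserts with pores of 0.4 µm and a surface of 1.12 cm2. Gut-on-chip samples (n = 4) had grown on a PET membrane with pores of the same size and a larger surface, inside a microfluidic device. There, medium ran at 100 µL/h, which gave a shear stress of about 0.002 dyne/cm2 on the apical side. Flow, device, culture area, supply of medium and lysis differed together between the groups, so their effects cannot be told apart. One Affymetrix array of the type Human Gene 2.1 ST was used per sample. Values are log2 levels, a log2 fold change (log2FC) is the gut-on-chip mean minus the Transwell mean, and the level of 1 gene says nothing of its amount against another gene, since probes differ in brightness. Array medians lay between 2.462 and 2.485 over 53617 probe sets. Each array correlated with the mean of the other arrays of its group at 0.9854 to 0.9881 over all probe sets, and none stood apart. The test was limma with an intensity-based moderated statistic, with FDR values over the whole table.

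With an FDR below 0.01 as the threshold, 6 of the 83 genes were higher in the gut-on-chip and 7 were lower, which is 15.7%. Over all 22392 genes, 15.8% passed (8.72% upregulated and 7.06% downregulated), and 9.56% of all probe sets passed. The share called was thus close to that of genes at large, and no difference between the classes was tested. Of the integrin subunits and of the laminin chains, 3 genes each were upregulated, 2 of each were downregulated, and all 3 collagen genes that passed were downregulated, of which COL1A1 and COL5A2 each lost the call in 7 of the 8 fits with 1 array left out. In bulk RNA, fewer cells that express a gene and less RNA per cell cannot be told apart.

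Nearly all calls lay among genes with a mean level above 4. Of the 29 members above that level, 6 were upregulated and 6 were downregulated (41.4%), beside 30.8% of the 10417 genes above 4 in all (17.0% upregulated and 13.8% downregulated). Of the 54 members at or below 4, 1 was called, which is 1.85% beside 2.69% of the 11975 genes at or below 4 (1.48% upregulated and 1.21% downregulated). Among the brighter members, the median log2FC was 0.24 for 11 integrin genes, 0.11 for 8 laminin genes and -0.58 for 10 collagen genes, while it was 0.07 over all genes above 4. Without ITGB1BP1 this median was 0.12 for the 10 integrin subunits, and without LAMB2P1 it was 0.37 for 7 laminin chains. The order of these 2 classes thus depends on the genes counted. Among the dimmer members it was 0.05 for 19 integrin genes, 0.00 for 3 laminin genes and -0.03 for 32 collagen genes. The groups did not overlap for 24 of the 83 members, beside 30.7% of all genes. They did not overlap for 19 of the 29 brighter members, beside 53.1% of all genes above 4, and for 5 of the 54 dimmer members, beside 11.1%. The members just above the level of 4 were ITGA9 (4.06), COL23A1 (4.11), COL27A1 (4.22) and LAMA4 (4.30). Those just below it were ITGA7 (3.94), ITGB8 (3.82), COL7A1 (3.81) and ITGB3 (3.73). The level is a mean over both groups, so the change itself can place a gene above or below 4. By the Transwell mean alone, LAMA4 (3.58, against 5.02 in the gut-on-chip) would lie below 4. By the same measure ITGA7 (4.64, against 3.25) would lie above it.

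**Figure D1:**
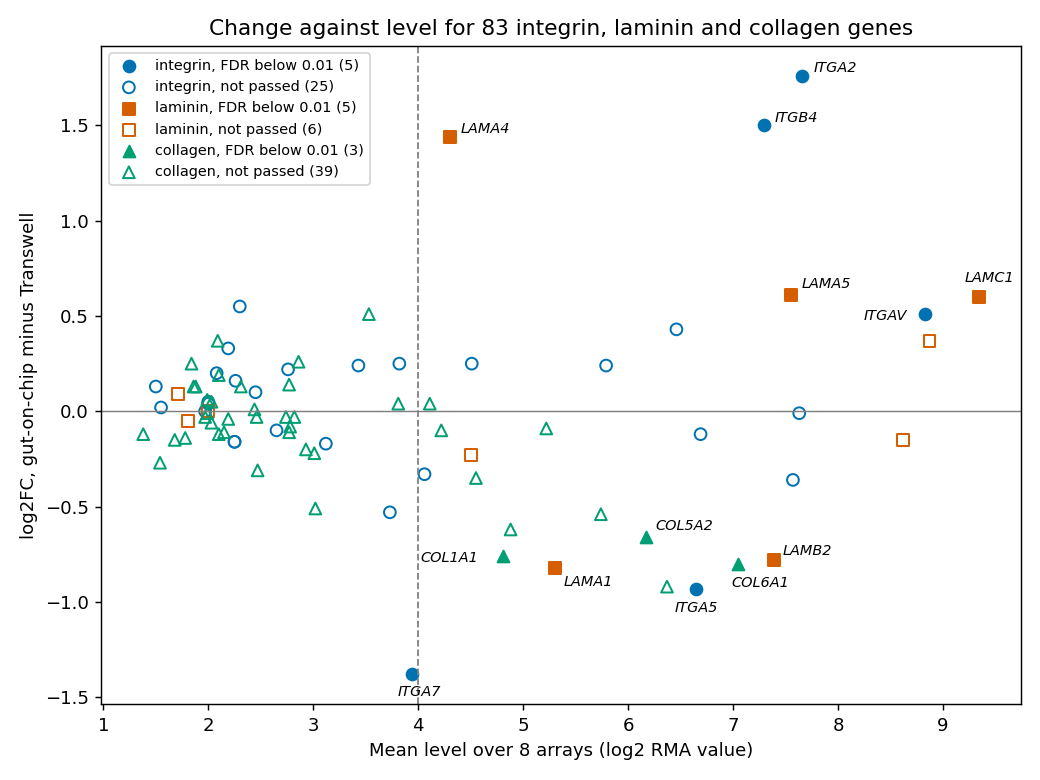
Change against level for the 83 genes. The horizontal axis gives the mean level over 8 arrays (log2), the vertical axis the log2FC of gut-on-chip against Transwell, filled symbols the genes with an FDR below 0.01 and the dashed line the level of 4. Of the 13 genes that passed, 12 lie to the right of the line and ITGA7 lies just left of it at 3.94, and all 3 filled triangles, which are collagens, lie below 0.

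Among the integrins, the collagen receptor subunit ITGA2 and the hemidesmosome subunit ITGB4 had the 2 largest increases. ITGA2, the alpha subunit that binds collagen when paired with ITGB1, had levels of 6.83, 6.74, 6.89 and 6.68 on the Transwell arrays and of 8.46, 8.80, 8.11 and 8.79 on the gut-on-chip arrays. Every gut-on-chip array lay above every Transwell array, and the mean rose from 6.78 ± 0.09 to 8.54 ± 0.33 (SD, n = 4 each), which is 3.38-fold (log2FC = 1.76, SE 0.15, FDR = 3.09e-05 by limma). ITGB4, which pairs with ITGA6 and links laminin to keratin filaments in hemidesmosomes, had levels of 6.48, 6.73, 6.54 and 6.43 in the Transwell inserts and of 7.67, 8.31, 7.96 and 8.23 in the gut-on-chip. Here too the groups did not overlap, and the mean rose 2.82-fold, from 6.54 ± 0.13 to 8.04 ± 0.29 (log2FC = 1.50, SE 0.14, FDR = 6.76e-05).

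ITGAV, the alpha subunit of receptors that recognise the RGD sequence of vitronectin and fibronectin, was upregulated by less. Its levels were 8.67, 8.57, 8.46 and 8.59 in the Transwell inserts and 9.29, 9.13, 8.84 and 9.08 in the gut-on-chip. All gut-on-chip arrays were higher, with a 1.43-fold difference of the means (log2FC = 0.51, SE 0.10, FDR = 0.00506). This call rested on most arrays, since the FDR was above 0.01 without any 1 of the 4 Transwell arrays or without gut-on-chip replicate 2 or 4, up to 0.0199 without Transwell replicate 3, and it was 0.0210 with limma without a trend.

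The fibronectin receptor subunit gene ITGA5 was downregulated. It had levels of 6.98, 7.12, 7.27 and 7.08 in the Transwell inserts and of 5.79, 6.10, 6.49 and 6.34 in the gut-on-chip. No gut-on-chip array reached the lowest Transwell array, and the mean was 1.91-fold lower (7.11 ± 0.12 against 6.18 ± 0.30, log2FC = -0.93, SE 0.15, FDR = 0.00161 by limma). ITGA7, a laminin-binding alpha subunit best known from muscle, was the only member at or below a mean level of 4 that passed. Its levels were 4.80, 4.77, 4.50 and 4.48 in the Transwell inserts and 3.11, 3.10, 3.61 and 3.19 in the gut-on-chip, so all Transwell arrays were above 4 and all gut-on-chip arrays were below it (log2FC = -1.38, SE 0.17, FDR = 4.32e-04).

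The promoters of ITGA2 and ITGA5 are shown because these genes had the largest called changes in each direction among the integrin genes above a level of 4 that have an entry in the promoter table. They are RefSeq sequences of the build GRCh38.p14, from 250 bases before to 50 bases after the gene's start, 5′ to 3′ on the gene's strand. That of ITGA2 is chr5:52989102-52989401 on the plus strand and that of ITGA5 is chr12:54419217-54419516 on the minus strand. Capitals mark matches, on either strand, to the GC box GGGCGG, the AP-1 motif TGANTCA and the TEAD motif GGAATG, which do not overlap one another here. The TATA box letters TATAAA were searched too and are in neither window.
ITGA2: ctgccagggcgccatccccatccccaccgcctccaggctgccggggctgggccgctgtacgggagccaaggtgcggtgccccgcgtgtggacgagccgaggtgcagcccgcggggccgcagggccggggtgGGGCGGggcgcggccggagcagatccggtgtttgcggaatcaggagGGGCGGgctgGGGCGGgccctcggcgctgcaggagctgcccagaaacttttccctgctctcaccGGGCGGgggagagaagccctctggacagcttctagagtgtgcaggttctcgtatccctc
ITGA5: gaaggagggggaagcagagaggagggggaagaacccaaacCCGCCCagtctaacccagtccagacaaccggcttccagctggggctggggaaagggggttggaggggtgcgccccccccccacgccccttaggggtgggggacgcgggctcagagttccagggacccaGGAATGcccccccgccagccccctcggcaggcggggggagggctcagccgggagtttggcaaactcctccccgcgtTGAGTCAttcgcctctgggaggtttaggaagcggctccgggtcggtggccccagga
The ITGA2 window has a GC content of 72.7% and holds 4 GC boxes, which begin 119, 73, 63 and 9 bases before the start. The ITGA5 window (69.3% GC) holds 1 GC box, read on the opposite strand, that begins 210 bases before the start, 1 TEAD motif at 82 bases and 1 AP-1 motif at 6 bases before it. Over all 35116 promoters of this length in the table, 45.0% hold a GC box, 14.0% the TEAD letters, 7.71% the AP-1 letters and 11.5% the TATA letters. A match describes the letters and not a bound site.

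Other epithelial integrin genes changed less or did not pass. ITGA6, which encodes the alpha subunit of laminin receptors and is the partner of ITGB4, had levels of 7.64, 7.59, 7.66 and 7.66 in the Transwell inserts and of 7.54, 7.95, 7.47 and 7.55 in the gut-on-chip, a log2FC of -0.01 (SE 0.11, FDR = 0.969 by limma). The groups overlapped, and gut-on-chip replicate 2 was the highest of the 8. ITGA3, another laminin-binding alpha subunit gene, had levels of 7.81, 7.77, 7.62 and 7.80 in the Transwell inserts and of 7.53, 7.50, 7.32 and 7.23 in the gut-on-chip. The groups did not overlap, but the gene did not pass (log2FC = -0.36, FDR = 0.0227). It passed when only probe sets with a mean of at least 4 were kept (FDR = 0.00774). ITGB5, a partner of ITGAV, had levels of 6.69, 6.67, 6.80 and 6.84 against 6.67, 6.86, 6.61 and 6.40, which overlapped (log2FC = -0.12, FDR = 0.567).

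ITGB6, the partner of ITGAV in an epithelial receptor that activates latent TGF-beta, lay at 6.19 to 6.30 in the Transwell inserts and at 6.46 to 6.89 in the gut-on-chip. The ranges did not overlap, and the FDR was 0.0211 (log2FC = 0.43), or 0.00733 when only probe sets with a mean of at least 4 were kept. ITGB1, the beta subunit shared by most matrix receptors, had means of 5.66 ± 0.07 and 5.91 ± 0.06 (SD, n = 4 each) without overlap (log2FC = 0.24, FDR = 0.127 by limma). ITGA9 had a log2FC of -0.33 (FDR = 0.187), again without overlap, and ITGB1BP1, which encodes a protein that binds the tail of ITGB1, a log2FC of 0.25 (FDR = 0.352) with overlap.

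**Figure D2:**
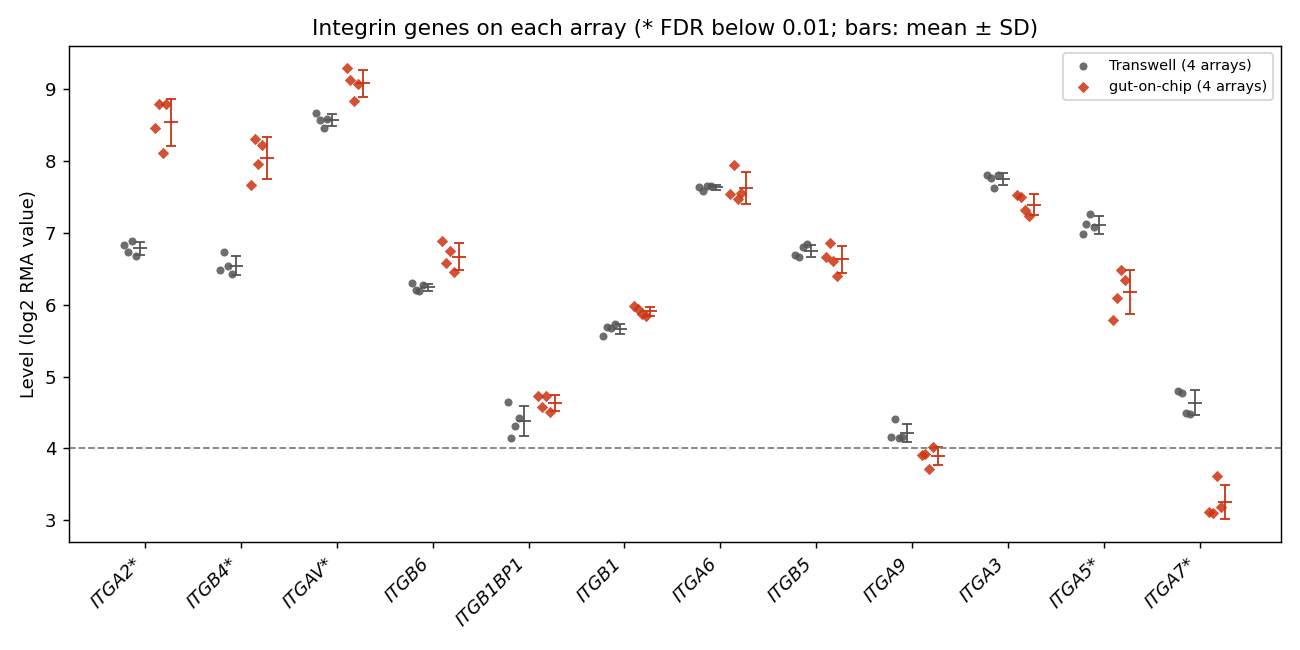
Level of each integrin gene above a mean of 4, and of ITGA7, on each array. The vertical axis is the log2 level, circles are the 4 Transwell arrays, diamonds the 4 gut-on-chip arrays, bars the mean ± SD, the dashed line the level of 4 and asterisks an FDR below 0.01. ITGA2 and ITGB4 are higher on every gut-on-chip array, ITGA5 and ITGA7 lower, and both groups lie close together for ITGA6.

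The remaining 18 genes of the integrin class, at or below a level of 4, did not pass and had mean levels from 1.50 (ITGA4) to 3.82 (ITGB8). The leukocyte subunits, 5 alpha (ITGAD, ITGAE, ITGAL, ITGAM and ITGAX) and 2 beta (ITGB2 and ITGB7), lay between 1.97 and 3.12, with log2FC between -0.17 and 0.33. Array ranges did not overlap for ITGA11, a collagen-binding subunit gene (2.03 ± 0.12 against 2.58 ± 0.30, log2FC = 0.55, FDR = 0.0631 by limma), and for ITGB3, a partner of ITGAV (3.99 ± 0.18 against 3.46 ± 0.29, log2FC = -0.53, FDR = 0.0935).

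Among the laminin alpha chains, 2 genes were upregulated and 1 was downregulated. LAMA4, whose protein is best known from the basement membranes of vessels, muscle and fat, was upregulated from levels of 3.54, 3.78, 3.39 and 3.62 in the Transwell inserts to 4.99, 5.15, 5.04 and 4.87 in the gut-on-chip. Every Transwell array was below 4 and every gut-on-chip array was above it, a 2.70-fold increase (3.58 ± 0.16 against 5.02 ± 0.12, SD, n = 4 each, log2FC = 1.44, SE 0.14, FDR = 1.06e-04 by limma). LAMA5, the alpha chain of mature epithelial basement membranes, had levels of 7.27, 7.34, 7.04 and 7.33 in the Transwell inserts and of 8.01, 8.02, 7.47 and 7.91 in the gut-on-chip. Its 1.52-fold increase passed narrowly (log2FC = 0.61, SE 0.13, FDR = 0.00945), and the FDR was above 0.01 without any 1 array other than gut-on-chip replicate 3, up to 0.0320 without Transwell replicate 3, and was 0.0237 with limma without a trend. LAMA1, the alpha chain that dominates early embryonic basement membranes, was downregulated 1.76-fold, with levels of 5.69, 5.85, 5.72 and 5.58 against 4.85, 4.71, 4.69 and 5.32 (log2FC = -0.82, SE 0.15, FDR = 0.00490). Its highest gut-on-chip array, replicate 4, stayed below all Transwell arrays, and its FDR was above 0.01 without any 1 array other than that one, up to 0.0195 without Transwell replicate 2.

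Of the beta and gamma chains, LAMB2 was downregulated and LAMC1 was upregulated. LAMB2, an alternative to LAMB1 in many trimers, had levels of 7.84, 7.74, 7.74 and 7.81 in the Transwell inserts and of 6.92, 7.13, 6.89 and 7.05 in the gut-on-chip. The gap between the groups was wide against their spread, and the mean was 1.72-fold lower (7.78 ± 0.05 against 7.00 ± 0.11, SD, n = 4 each, log2FC = -0.78, SE 0.08, FDR = 1.14e-04 by limma). LAMC1, the gamma chain of most laminins, had levels of 9.19, 9.01, 8.95 and 9.00 against 9.84, 9.75, 9.38 and 9.57. All gut-on-chip arrays were higher (1.51-fold, log2FC = 0.60, SE 0.10, FDR = 0.00296), and the FDR was above 0.01 without Transwell replicate 2, 3 or 4, up to 0.0125, and was 0.0133 with limma without a trend.

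LAMB1, the common beta chain, had levels of 8.75, 8.75, 8.53 and 8.73 in the Transwell inserts and of 9.05, 9.47, 8.74 and 8.97 in the gut-on-chip, where replicate 3 fell within the Transwell range (log2FC = 0.37, SE 0.14, FDR = 0.115 by limma). LAMB3, the beta chain of the laminin that hemidesmosomes bind, had levels of 8.65, 8.74, 8.64 and 8.73 against 8.62, 8.50, 8.79 and 8.25, which overlapped (log2FC = -0.15, FDR = 0.443). LAMB2P1 had levels of 4.21, 4.55, 4.83 and 4.87 against 4.50, 4.91, 4.28 and 3.86, with overlap as well (log2FC = -0.23, FDR = 0.644). The dimmer chains LAMA2, LAMB4 and LAMC3 lay between 1.71 and 2.00, with log2FC between -0.05 and 0.09.

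**Figure D3:**
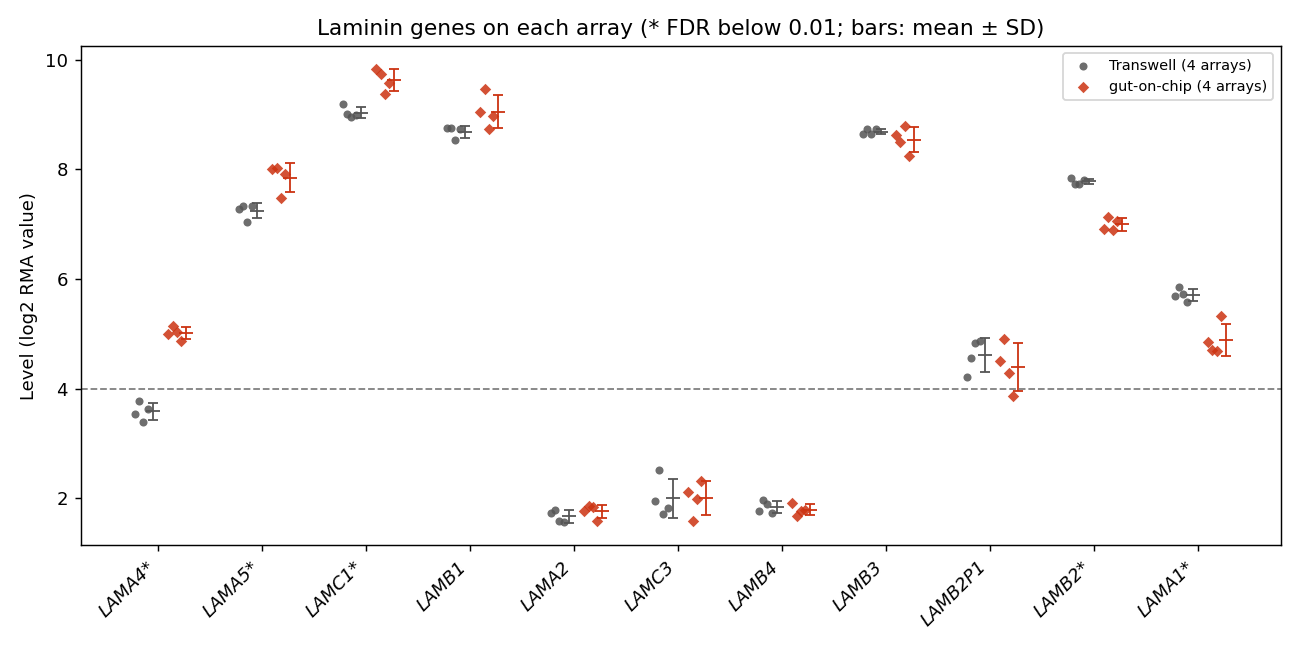
Level of all 11 genes of the laminin class on each array. The vertical axis is the log2 level, circles are the 4 Transwell arrays, diamonds the 4 gut-on-chip arrays, bars the mean ± SD, the dashed line the level of 4 and asterisks an FDR below 0.01. LAMA4 crosses the dashed line between the groups, LAMB2 and LAMA1 are lower on every gut-on-chip array, and LAMA2, LAMB4 and LAMC3 stay near 2.

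The promoters of LAMA4 and LAMB2 are shown for the same reason, as those of the laminin genes with the largest called increase and decrease that have an entry. They are RefSeq sequences of GRCh38.p14 of the same length and orientation, chr6:112254518-112254817 on the minus strand for LAMA4 and chr3:49133001-49133300 on the minus strand for LAMB2, with the same motifs in capitals.
LAMA4: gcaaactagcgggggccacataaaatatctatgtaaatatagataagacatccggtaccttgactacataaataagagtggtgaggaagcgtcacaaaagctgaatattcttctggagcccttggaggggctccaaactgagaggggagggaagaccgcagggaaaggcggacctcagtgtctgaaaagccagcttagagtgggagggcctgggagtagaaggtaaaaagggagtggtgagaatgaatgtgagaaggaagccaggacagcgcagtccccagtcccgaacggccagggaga
LAMB2: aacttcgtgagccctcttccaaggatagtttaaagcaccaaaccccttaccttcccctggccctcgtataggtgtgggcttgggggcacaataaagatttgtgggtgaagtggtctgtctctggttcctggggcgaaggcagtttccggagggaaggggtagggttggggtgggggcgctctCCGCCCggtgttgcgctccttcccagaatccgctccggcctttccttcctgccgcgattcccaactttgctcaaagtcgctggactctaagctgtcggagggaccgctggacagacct
The LAMA4 window has a GC content of 51.3% and holds none of the 4 motifs. That of LAMB2 (58.7% GC) holds 1 GC box, read on the opposite strand, which begins 68 bases before the start.

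Collagen genes above a level of 4 were lower in the gut-on-chip in 9 of 10 cases by their means, and the exception, COL23A1, had a log2FC of 0.04 that turned to -0.0013 when the arrays were quantile-normalized again. Of these 10 genes, 3 passed the test (30.0%), all of them downregulated. Of all genes above 4, 30.8% passed and 13.8% were downregulated. The share of lower means among all genes above 4 was not counted, and their median log2FC was 0.07. The decreases of COL6A2 (log2FC = -0.09, SE 0.18) and COL27A1 (log2FC = -0.10, SE 0.13) were smaller than their SE, so the count of means is no sign of a fall in every gene. COL6A1, a chain of the beaded filaments that surround many cells, had levels of 7.46, 7.34, 7.47 and 7.53 in the Transwell inserts and of 6.56, 6.98, 6.56 and 6.50 in the gut-on-chip. Gut-on-chip replicate 2 stood above the other arrays of its group and still below all Transwell arrays, and the mean was 1.74-fold lower (7.45 ± 0.08 against 6.65 ± 0.22, SD, n = 4 each, log2FC = -0.80, SE 0.11, FDR = 9.08e-04 by limma). Its partner COL6A2 had levels of 5.12, 5.38, 5.64 and 4.92 against 5.08, 5.34, 5.34 and 4.94, which overlapped almost fully (log2FC = -0.09, SE 0.18, FDR = 0.825, and 0.04 without Transwell replicate 3).

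The fibrillar chains COL1A1 and COL5A2 were downregulated too. COL1A1, which encodes the alpha chain that makes up most of type I collagen, had levels of 4.84, 5.28, 5.24 and 5.38 in the Transwell inserts and of 4.52, 4.18, 4.41 and 4.60 in the gut-on-chip (1.69-fold lower, log2FC = -0.76, SE 0.16, FDR = 0.00877 by limma). The groups did not overlap, but the FDR was above 0.01 without any 1 array other than Transwell replicate 1, up to 0.0315 without Transwell replicate 4. The other type I chain, COL1A2, had a mean level of 1.86 and a log2FC of 0.13 (FDR = 0.742). COL5A2, a chain of type V collagen, which is built into type I fibres, had levels of 6.59, 6.59, 6.47 and 6.34 against 5.91, 6.11, 5.47 and 5.87. All gut-on-chip arrays were lower (1.58-fold, log2FC = -0.66, SE 0.14, FDR = 0.00882), and the FDR was above 0.01 without any 1 array other than gut-on-chip replicate 2, up to 0.0313 without Transwell replicate 2, and was 0.0166 with limma without a trend.

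COL12A1, whose protein decorates fibrils, turned on a single array. Its levels were 6.80, 6.85, 6.81 and 6.87 in the Transwell inserts and 6.71, 5.45, 5.81 and 5.67 in the gut-on-chip, where replicate 1 lay just under the Transwell arrays and the other 3 lay far below them (log2FC = -0.92, SE 0.23, FDR = 0.0204 by limma). Without gut-on-chip replicate 1 the log2FC was -1.19 and the gene passed (FDR = 1.08e-04). COL26A1 had levels of 5.99, 6.14, 5.78 and 6.11 against 5.23, 5.60, 5.55 and 5.52, which did not overlap, and it did not pass (log2FC = -0.54, FDR = 0.0156). It passed when only probe sets with a mean of at least 4 were kept (FDR = 0.00571), as did COL12A1 (FDR = 0.00860). The cartilage collagen gene COL2A1 had a log2FC of -0.62 (FDR = 0.0630) and COL18A1, which encodes a basement membrane collagen and the precursor of endostatin, of -0.35 (FDR = 0.328).

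**Figure D4:**
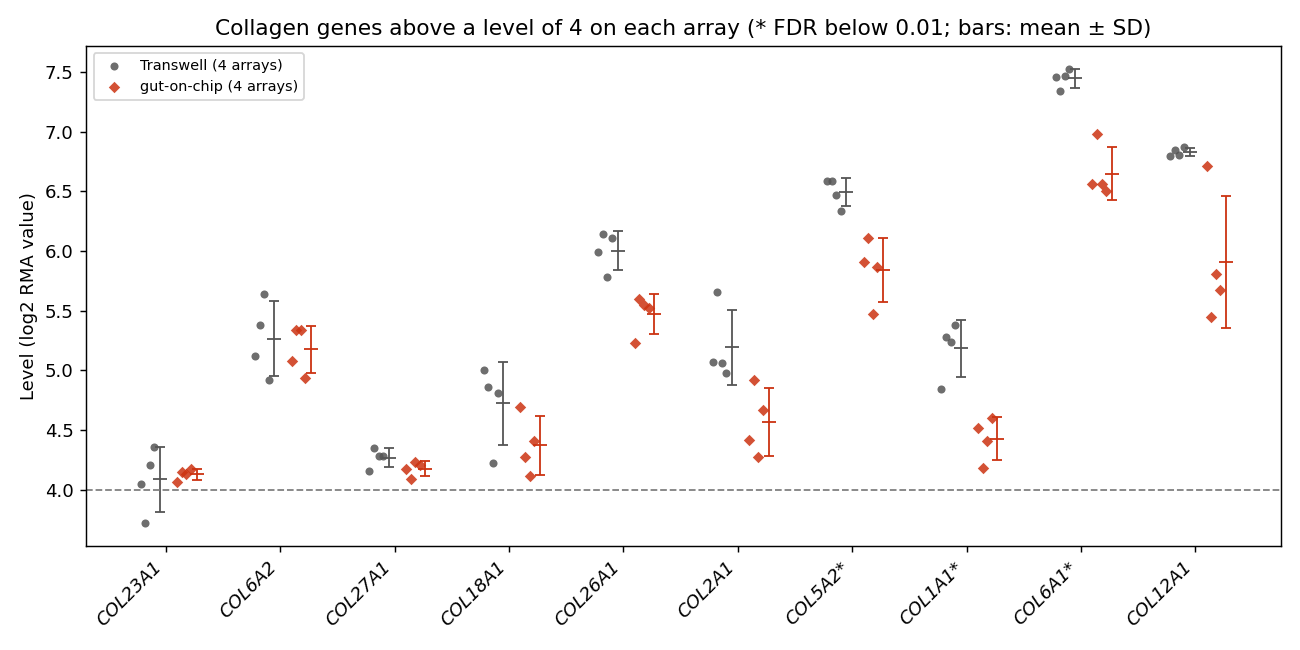
Level of the 10 collagen genes with a mean above 4 on each array. The vertical axis is the log2 level, circles are the 4 Transwell arrays, diamonds the 4 gut-on-chip arrays, bars the mean ± SD, the dashed line the level of 4 and asterisks an FDR below 0.01. COL6A1, COL5A2 and COL1A1 are lower on every gut-on-chip array, and for COL12A1 gut-on-chip replicate 1 (6.71) lies far above the other 3 arrays of its group.

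The 32 collagen genes at or below a level of 4 ranged from 1.38 (COL6A5) to 3.81 (COL7A1) in mean level, and none passed. All 6 chains of type IV collagen, the network of basement membranes, were among them, with mean levels from 1.97 (COL4A3) to 3.02 (COL4A5) and log2FC between -0.51 and 0.37. COL7A1, the chain of anchoring fibrils, had means of 3.79 ± 0.22 and 3.83 ± 0.04 (SD, n = 4 each, log2FC = 0.04). The groups did not overlap for COL4A5 (3.28 ± 0.24 against 2.77 ± 0.19, log2FC = -0.51, FDR = 0.101 by limma) and COL11A2. The latter, a minor fibrillar chain of cartilage, was the only member with several probe sets, 7 with 5 distinct rows of values, and their log2FC of 0.47 to 0.53 went with FDR values of 0.0296 to 0.0613, none past the threshold.

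To compare the changes of genes whose products work as partners within arrays, the log2 difference between partners was taken on each array and set against its Transwell mean, for 11 pairs that were chosen after their values were seen. Most pairs set a called gene against one that was not called or moved the other way, so a gap between the groups was largely given by that choice, and no test is made. The change was 1.51 for ITGB4 against ITGA6, with gut-on-chip arrays at 1.22 to 1.77 and Transwell arrays at -0.14 to 0.23. It was 1.51 too for the collagen-binding subunit ITGA2 against ITGB1, while the fibronectin-binding ITGA5 had a change of -1.17 and the laminin-binding ITGA3 of -0.60 against the same beta subunit. These 4 pairs did not overlap between the groups. ITGAV had a change of 0.63 against ITGB5 without overlap, whereas ITGB6 against ITGAV had a change of -0.08 with overlap.

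Within the laminins, the change was 1.15 for LAMB1 against LAMB2 and 1.42 for LAMA5 against LAMA1, both without overlap. LAMC1 had a change of 1.38 against LAMB2 without overlap, and against LAMB1 its change was 0.23, with gut-on-chip arrays at -0.07 to 0.45 and Transwell arrays at -0.09 to 0.09. COL6A2 against COL6A1 had a change of 0.71, with gut-on-chip arrays at 0.55 to 0.97 and Transwell arrays at -0.42 to 0.36.

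**Figure D5:**
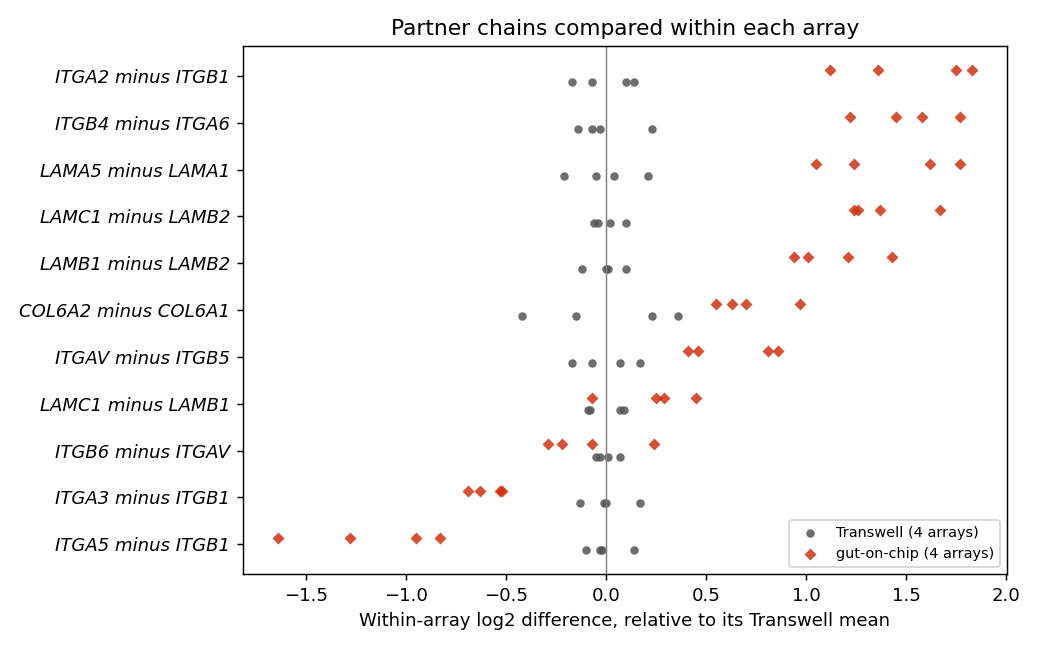
Log2 difference between partner genes on each array, relative to its Transwell mean. The horizontal axis is that difference, circles are the 4 Transwell arrays and diamonds the 4 gut-on-chip arrays, and pairs are ordered by their change. ITGA2 minus ITGB1 and ITGB4 minus ITGA6 (both 1.51) lie furthest to the right and ITGA5 minus ITGB1 (-1.17) furthest to the left, for pairs chosen after their values were seen.

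Other genes of matrix adhesion were counted in 6 lists of 149 measured genes. Of these, 25 were upregulated (16.8%, beside 8.72% of all genes) and 10 were downregulated (6.71%, beside 7.06%), and 35.1% of the 94 above a level of 4 were called, beside 30.8% of all genes above 4. Of 36 measured genes of the adhesion plaque, which couples integrins to actin, 6 rose and 2 fell, and 28 did not pass, with 28.6% called among the 28 genes above 4 (30.8% of all genes there). PARVA, part of the complex that links integrin tails to actin, had a mean of 5.79 ± 0.20 in the Transwell inserts and of 7.48 ± 0.14 in the gut-on-chip (SD, n = 4 each), a log2FC of 1.69 (SE 0.12, FDR = 1.18e-05 by limma), and the LIM protein gene FHL2 (log2FC = 1.28) and the vinculin gene VCL (1.21) rose as well. TNS1, which encodes tensin, was downregulated (-0.81, with an FDR above 0.01 without Transwell replicate 1, 2 or 3, up to 0.0128), and so was TGFB1I1 (-0.72, with an FDR above 0.01 without any 1 array, up to 0.0319 without Transwell replicate 3). ACTN4, an actin crosslinker gene, had levels of 11.30 ± 0.03 and 11.38 ± 0.10 and did not pass (log2FC = 0.08, FDR = 0.459). Of the 7 hemidesmosome partners, the keratin gene KRT18 was upregulated (0.98, FDR = 3.36e-04), none was downregulated and 6 did not pass, with DST, the gene of a plaque protein, at a log2FC of 0.09 (FDR = 0.797).

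Among 35 measured genes of collagen biosynthesis and crosslinking, 10 rose, 3 fell and 22 stayed short of the threshold. All 13 called genes were among the 25 above 4, of which they make up 52% (30.8% of all genes there), and no list was tested. LOX, which encodes the lysyl oxidase that crosslinks collagen and elastin, had levels of 9.62, 9.69, 9.86 and 9.71 in the Transwell inserts and of 7.09, 6.93, 7.49 and 6.86 in the gut-on-chip. The groups lay far apart, and LOX had the largest decrease of all genes in the 6 lists (log2FC = -2.63, SE 0.13, FDR = 1.63e-06 by limma). PLOD2, a lysyl hydroxylase gene, fell from 10.80 ± 0.03 to 10.05 ± 0.06 (log2FC = -0.74, FDR = 1.05e-05), and CRTAP, a member of the prolyl hydroxylation complex, had a log2FC of -0.35 (FDR = 0.00415, above 0.01 without any 1 array other than Transwell replicate 4 and gut-on-chip replicate 1, up to 0.0167 without Transwell replicate 2).

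The transglutaminase gene TGM2 rose from 7.26 ± 0.12 to 9.13 ± 0.22, a log2FC of 1.87 (SD, n = 4 each, SE 0.11, FDR = 5.58e-06 by limma). The collagen chaperone gene FKBP14 (log2FC = 0.96) and the prolyl 3-hydroxylase gene P3H2 (0.95, with an FDR above 0.01 without Transwell replicate 3 or 4 or gut-on-chip replicate 4, up to 0.0117) rose too. PLOD1, another lysyl hydroxylase gene, had a level of 8.81 in gut-on-chip replicate 1, 9.52 to 9.72 in the other gut-on-chip arrays and 9.23 to 9.35 in the Transwell inserts. It did not pass (log2FC = 0.14, FDR = 0.702), and without gut-on-chip replicate 1 the log2FC was 0.34 (FDR = 0.00899).

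Among 23 other measured genes of the basement membrane, 3 rose, none fell and 20 stayed short of the threshold. Of the 12 above 4, 16.7% were called, beside 30.8% of all genes there. SPARC, which encodes a collagen-binding matricellular protein, had levels of 3.12, 3.29, 3.38 and 3.32 in the Transwell inserts and of 5.51, 5.72, 5.46 and 5.61 in the gut-on-chip, a log2FC of 2.30 (SE 0.13, FDR = 4.23e-06 by limma), which placed it below 4 on all Transwell arrays and above 4 on all gut-on-chip arrays. FBLN2 (log2FC = 1.40, with an FDR above 0.01 without Transwell replicate 1, 2 or 4 or gut-on-chip replicate 2 or 4, up to 0.0151) and TINAGL1 (0.68) were upregulated as well. FBLN1, another fibulin gene, had levels of 8.64 ± 0.06 and 8.52 ± 0.18 (SD, n = 4 each, log2FC = -0.12, FDR = 0.484).

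Among 17 measured genes of other matrix receptors, 1 rose, 3 fell and 13 stayed short of the threshold. Of the 8 above 4, 37.5% were called, beside 30.8% of all genes there. DDR1, DAG1 and RPSA belong to this list but were not measured. The heparan sulfate proteoglycan genes SDC2 (8.57 ± 0.11 against 6.51 ± 0.19, SD, n = 4 each, log2FC = -2.06, SE 0.10, FDR = 1.91e-06 by limma) and GPC3 (from 11.49 ± 0.01 to 10.44 ± 0.07, log2FC = -1.05) were downregulated. So was BCAM, which encodes a receptor for the LAMA5 chain (from 9.65 ± 0.09 to 8.96 ± 0.11, log2FC = -0.69, FDR = 1.68e-04), on arrays where LAMA5 itself was higher. GPC4 was upregulated (1.68, FDR = 0.00935, above 0.01 without any 1 array other than gut-on-chip replicate 2, up to 0.0310 without Transwell replicate 1), and SDC4 had a log2FC of 0.07 (FDR = 0.536).

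The list of other integrin ligands had 31 measured genes, of which 4 rose, 2 fell and 25 stayed short of the threshold. Of the 16 above 4, 37.5% were called, beside 30.8% of all genes there. CCN1, whose protein binds ITGAV receptors, had levels of 4.30, 4.72, 4.56 and 4.19 in the Transwell inserts and of 7.50, 6.93, 6.78 and 6.67 in the gut-on-chip. Its log2FC of 2.53 (SE 0.19, FDR = 1.88e-05 by limma) was the largest increase among the 6 lists. ICAM1, a ligand of leukocyte integrins (log2FC = 1.31), and the thrombospondin gene THBS1 (0.87) rose as well. The fibrinogen gene FGG had a log2FC of -1.34 and NPNT, the gene of the basement membrane protein nephronectin, of -1.13, and both were downregulated. The cadherin gene CDH1, which also binds ITGAE, did not pass (-0.05, FDR = 0.667).

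The labelled cell type was checked against marker lists, and no list was tested. Of all genes 15.8% passed (8.72% upregulated and 7.06% downregulated), and of those above a level of 4, 30.8% passed. Above 4 lay 11 of the 12 enterocyte-like markers, 3 of the 11 fibroblast, 1 of the 7 endothelial and 4 of the 11 leukocyte markers. The epithelial adhesion genes CDH1 and EPCAM had mean levels of 11.26 or more in both groups and did not pass. Of 12 markers of enterocyte-like epithelium 1 was upregulated (KRT18), 6 did not pass and 5 were downregulated, namely FABP2 (from 5.43 to 2.09, log2FC = -3.34), LGALS4 (-1.72), VIL1 (-1.01), CDH17 (-0.60) and CDX2 (-0.53), with summed levels of 96.2 to 97.6 in the Transwell inserts and 87.6 to 93.1 in the gut-on-chip. Of 11 fibroblast markers, VIM (log2FC = 0.96) and TAGLN (1.63) were upregulated and none was downregulated, with summed levels of 30.9 to 32.5 against 32.4 to 34.8, while LUM (4.87 against 5.30), PDGFRB (3.36 against 2.75), S100A4 (3.27 against 2.81) and THY1 (2.79 against 2.88) lay above the array medians in both groups and did not pass, and DCN, FAP, POSTN, TCF21 and ACTA2 lay below them at 1.39 to 2.13. Of 7 endothelial markers, CDH5 (1.84) and ESAM (1.23) were upregulated and none was downregulated, with summed levels of 15.9 to 17.5 against 19.4 to 20.6. The other 5, VWF (2.03 against 2.45), CLDN5 (2.07 against 2.31), KDR (1.87 against 1.76), TEK (1.58 against 1.56) and TIE1 (2.13 against 2.14), lay below the array medians in both groups. Of 11 leukocyte markers, CSF1R was upregulated (1.33) and none was downregulated, with summed levels of 42.4 to 43.8 against 43.9 to 46.6, and CD68 (10.42 against 10.55), LYZ (7.18 against 7.28), CD14 (6.91 against 6.49) and CD3D (2.68 against 3.08) lay above the array medians in both groups and did not pass. PTPRC, CD3E, MS4A1, NCAM1, KLRD1 and CD4 lay below them, at 1.35 to 2.39. Summed levels did not overlap between the groups for the enterocyte-like, endothelial and leukocyte lists, and they overlapped for the fibroblast list. The files hold no detection calls, so no marker can be called absent. The part of these markers in the changes of LAMA4, the other laminins, the integrins and the collagens was not tested.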

How the data were processed

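RNA of 8 Caco-2 samples, 4 per culture system, was measured on Affymetrix Human Gene 2.1 ST arrays. Values are log2 levels that the authors computed by RMA and deposited (version not given in the sources used here), which corrects background, normalizes quantiles between arrays and summarises probes, so differences in overall signal are removed. The table has 53617 probe sets, which differ from the gene definitions the methods describe and thus come from another summarisation. The labels name the RNeasy Mini kit and the methods the Micro kit. The platform annotation gave 1 symbol for 23866 probe sets, several for 1852 and none for 27899. A symbol of one of these classes also stood in 3 probe sets with several symbols, which were left out. Whether they hold genes outside the 83 was not checked, so a gene found only there would be missing. All 83 genes matched a RefSeq gene by Entrez identifier.

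Groups were compared in R 4.3.3 with limma 3.58.1 by a linear model without a block and with all 8 arrays. Prior variance followed mean level through a loess curve (span 0.3), after the method the study names. Two-sided p-values were adjusted over the whole table by Benjamini-Hochberg, and 0.01 was the threshold. The prior had 3.88 and the residual 6 degrees of freedom, and the median residual SD was 0.227. The code was tested on simulated data. No source says whether the 4 samples of a group were separate cultures. The p-values therefore reflect the spread among these arrays alone, possibly a technical one, and the number of arrays limits their precision.

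Members were parted at a mean level of 4 over all arrays. Values of every array are given for members past the threshold, for the 3 genes with the highest mean level per class that did not pass, and for some others. Of other lists, up to 3 of the largest called changes per direction and the gene with the highest level that did not pass are named. Members, lists and the level of 4 were chosen with earlier results of these data known. Alternatives changed the moderation, normalization, filter, adjustment, array weights, threshold, rule for several probe sets, level, integrin definition and replicate block, or left out each array in turn.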

Additional observations from a re-analysis of the deposited data

Results flagged for a closer look

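Within 12 of 128 groups of 4 arrays, taken over the genes named here, 1 array lay apart from the other 3 by more, relative to the group's whole range, than Dixon's critical value. Chance gives about 1 in 20 such groups, and no explanation was tested. Among the members, COL2A1 was at 5.66 in Transwell replicate 2 and at 4.98 to 5.07 in the other Transwell arrays. COL6A1 was at 6.98 in gut-on-chip replicate 2 and at 6.50 to 6.56 in the others, and ITGA6 was at 7.95 in that same array and at 7.47 to 7.55 in the others. ITGA9 was at 4.41 in Transwell replicate 2 and at 4.15 to 4.16 in the others, and LAMB1 was at 8.53 in Transwell replicate 3 and at 8.73 to 8.75 in the others.

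Among genes of the other lists, FHL2 was at 3.42 in Transwell replicate 4, beside 3.86 to 3.94 in the rest of its group. VCL was at 7.24 in Transwell replicate 1, beside 7.38 in the rest, and at 8.34 in gut-on-chip replicate 3, beside 8.60 to 8.64. In Transwell replicate 2, FBLN1 was at 8.73 (others 8.61 to 8.62), SDC2 at 8.41 (others 8.60 to 8.64) and BCAM at 9.78 (others 9.60 to 9.61). NPNT was at 9.10 in Transwell replicate 4, beside 9.00 to 9.01 in the rest.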

How the results depend on the processing

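Of the 13 members called, ITGA2, ITGB4, ITGA5, ITGA7, LAMA4, LAMB2 and COL6A1 passed with every array left out in turn and under every other fit, normalization and adjustment in which they were tested. Over all called members, the call held in 175 of the gene and alternative pairs and was lost in 45, with no change of direction. With 1 array left out, upregulated probe sets numbered 1923 to 2502 (2765 with all arrays) and downregulated ones 1691 to 2145 (2363). Among integrin genes 2 to 3 were then upregulated and 2 to 2 downregulated, among laminin genes 1 to 3 and 1 to 2, among collagen genes 0 to 0 and 1 to 2, and among genes of the 6 adhesion lists 19 to 26 and 7 to 11.

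Limma without a trend called 1 upregulated laminin gene in place of 3. With only probe sets with a mean of at least 4 kept, or only those with 1 symbol, 5 collagen genes were downregulated in each case. Under either choice the lists had 15 downregulated genes in place of 10, and why more genes passed was not tested. At an FDR below 0.05, 4510 probe sets were upregulated and 3749 downregulated, with 1 collagen gene upregulated, 5 collagen genes downregulated and 16 downregulated genes in the lists. At an FDR below 0.01 together with an absolute log2FC of at least 1, 1003 and 1096 probe sets, 1 downregulated integrin gene, 1 upregulated and 0 downregulated laminin genes, 0 downregulated collagen genes, and 10 upregulated and 5 downregulated list genes were left.

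The deviations of same-numbered samples correlated at -0.043 to 0.003, and those of differently numbered samples at -0.032 to 0.065. These values show no sign of pairing by replicate number, but they cannot exclude it. With replicate number as a block all the same, 1764 probe sets were upregulated, and 1 laminin and 1 collagen gene were downregulated (LAMB2 and COL6A1), with LAMA1 at an FDR of 0.0245, COL1A1 at 0.0301 and COL5A2 at 0.0166. Genes that turned direction were not called. These were COL23A1 after quantile normalization (-0.0013) and, with 1 array left out, COL23A1 (-0.08 to 0.14), COL6A2 (-0.21 to 0.04), ITGA6 (-0.12 to 0.04) and DST (-0.04 to 0.24), and the cause was not tested. Parted at a level of 3 or 5, collagen genes above it had a median log2FC of -0.43 or -0.66. The 11 partner differences, recomputed as alternatives chosen after seeing the data, kept their direction under all alternatives run for them. Signal near the array medians limits what can be said of dim members.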

Other observations

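Promoter windows of RefSeq (GRCh38.p14) were found for 59 of the 83 genes, 79 windows in all. Of these, 55.7% held a GC box (GGGCGG), 11.4% the TATA letters (TATAAA), 8.86% the TEAD letters (GGAATG) and 3.80% the AP-1 letters (TGANTCA), on either strand. The shares over all 35116 windows were 45.0%, 11.5%, 14.0% and 7.71%. Some genes have several windows, which can share sequence, and no test was made.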
